A study of Mus musculus with 9 samples.

Results

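The genes examined here carry names of families that build and maintain cilia and their axoneme. They were taken from bulk RNA-seq of hair cells (HCs), the sensory receptor cells of the inner ear. A gene was a member when its symbol began with Ift, Bbs or Cfap followed by a number, with Dnah, Tekt or Rsph followed by a number, or was *Ccdc39*, *Ccdc40*, *Ccdc103*, *Ccdc113* or *Ccdc114*. This name rule found 98 of 43808 genes, of which 90 were tested, among 15184 genes in all that reached 20 reads in 2 or 3 libraries of any one genotype. By subgroup, 3 of 3 IFT-A genes, 11 of 12 IFT-B genes, 8 of 8 Bbs, 40 of 42 Cfap, 4 of 4 Ccdc, 12 of 16 Dnah, 7 of 8 Rsph and 5 of 5 Tekt genes were tested. The IFT-B and Dnah totals include *Ift88os* and *Dnah2os*, which are annotated as antisense to *Ift88* and *Dnah2* and were not tested. The symbol *Ccdc114* was not matched and is not analysed here.

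HCs were sorted from postnatal day 1 mice that carried the Atoh1/nGFP transgene, which places green fluorescent protein in the nuclei of HCs, and were wild-type, heterozygous or homozygous mutant for the diminuendo (Dmdo) allele of *Mir96*. Each genotype had 3 mice, all of them Atoh1/nGFP+. Dmdo is a single-base change in the seed of miR-96, a microRNA of HCs, kept on C3HeB/FeJ and crossed here to C57BL6 transgenic mice. Cells positive for both GFP and CD326 came from the cochlea and the vestibular organs of both ears of a mouse and were pooled, so no value below separates the auditory from the vestibular organ. In such bulk samples, fewer cells of a type and less RNA per cell cannot be told apart.

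Cilia are built by intraflagellar transport (IFT), in which the IFT-B complex moves cargo outward with kinesin-2 and the IFT-A complex returns it with cytoplasmic dynein-2. The BBSome, made of BBS proteins, carries membrane proteins in and out of the cilium. Many Cfap proteins, and the Tekt, Rsph and Ccdc39/40 proteins, lie in or on the axonemal microtubules. There tektins line the doublets, radial spokes point to the central pair and Ccdc39 and Ccdc40 set the spacing of the axoneme. Dnah genes encode the heavy chains of the axonemal dynein motors. HCs grow a single true cilium, the kinocilium, next to the stereocilia of the bundle. In the mouse cochlea it is lost as the bundle matures, while vestibular HCs keep it.

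The mutation itself is shown because each genotype is defined by it. The mature miR-96-5p lies at chr6:30169506-30169528 on the minus strand (GRCm38.p6, RefSeq), and its seed, bases 2 to 8 from the 5′ end, is in capitals. The Dmdo form carries A7U, counted from the 5′ end, and was written by substituting that base.
miR-96-5p wild-type: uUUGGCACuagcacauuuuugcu
miR-96-5p Dmdo: uUUGGCUCuagcacauuuuugcu
A site pairing with the wild-type seed reads GTGCCAA, or, in the form opposite bases 2 to 7 followed by an A, TGCCAAA. The same forms for the Dmdo seed read GAGCCAA and, for the second form, AGCCAAA. The 3′ UTRs of the GENCODE annotation held a wild-type seed site in 7 of the 87 tested members with a 3′ UTR (8.05%), against 2563 of 12980 genes tested (19.7%). The median 3′ UTR length was 387 bases in members and 1218 bases in all genes tested, so the search windows differed. The longer 8-base form of the wild-type site occurred in 0 of the 87 members and in 3.08% of all genes tested. A site for the Dmdo seed stood in 7 of 87 members (8.05%) and in 19.4% of all genes tested.

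The members with a wild-type site were *Bbs7*, *Bbs9*, *Cfap20*, *Cfap61*, *Cfap97*, *Cfap161* and *Cfap410*. The sites that match bases 2 to 8 were in *Bbs9*, a BBSome subunit, at chr9:22887976-22887982 on the plus strand, and in *Cfap20*, at chr8:95420991-95420997 on the minus strand. They are printed with flanking bases, the site in capitals.
*Bbs9*: ccggtgctGTGCCAAgctcatct
*Cfap20*: gtgtggcaGTGCCAAgtcagggg
With all libraries, none of these 7 genes passed the edgeR or DESeq2 test in the comparisons below. Without wild-type library 44, *Cfap20* was called in edgeR as higher in homozygous mutant than in wild-type HCs and as rising in the trend. *Cfap20* also held a Dmdo seed site, at chr8:95421945-95421951 on the minus strand. No wild-type or Dmdo site was found in *Ift43*, *Ift46*, *Cfap36*, *Cfap46*, *Cfap57*, *Cfap58* or *Cfap65*. *Ift88*, which encodes an IFT-B core subunit, held a Dmdo seed site at chr14:57517753-57517759 on the plus strand.
*Ift88*: ctctctctAGCCAAAtaagtcat
A match is a description of letters and not evidence of binding.

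Ciliary genes are often controlled by RFX transcription factors, which bind the X-box. The letters GTTNCCNNGGNAAC and its arm GTTGCC, which reads GGCAAC on the other strand, were searched on both strands from 250 bases before to 50 bases after each RefSeq start. An X-box stood near the start of 3 of 76 tested members that had a promoter in the table (3.95%), against 0.706% of 10903 genes tested. Each X-box of the members overlaps an arm, so the counts are not independent. An arm stood in 32 of the 76 members (42.1%), against 1675 of 10903 (15.4%). These shares are descriptions without a test, and 17 of the 98 members, *Cfap65*, *Ift80*, *Ift81*, *Ift122*, *Cfap53* and *Cfap418* among them, had no promoter in the table. The X-boxes are shown with the matched letters in capitals, in the direction of the gene.
*Cfap20dc*: gcccctcaGTTGCCTGGGCAACggctcagc
*Cfap298*: gggttttgGTTGCCCGGGCAACagctactt
*Bbs7*: gcgccccgGTTGCCTTGGAAACcggccagc
They lie at chr14:8666379-8666392, chr16:90935024-90935037 and chr3:36613497-36613510 (GRCm38.p6, all minus-strand genes). Arms without a full X-box stood near the start of *Tekt1*, *Cfap46*, *Cfap58*, *Cfap300*, *Ift88* and *Bbs1*, all described below, and none was found in the windows of *Ift43*, *Ift46*, *Cfap36* and *Cfap57*. The leading ones are printed as 26 letters with the arm in capitals.
*Tekt1*: cgtccgtccgGTTGCCatagagaccg
*Cfap46*: cccgtctctaGGCAACcgctactggt
*Cfap58*: gggcgtggcgGTTGCCaggcgaccga

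**Figure D1:**
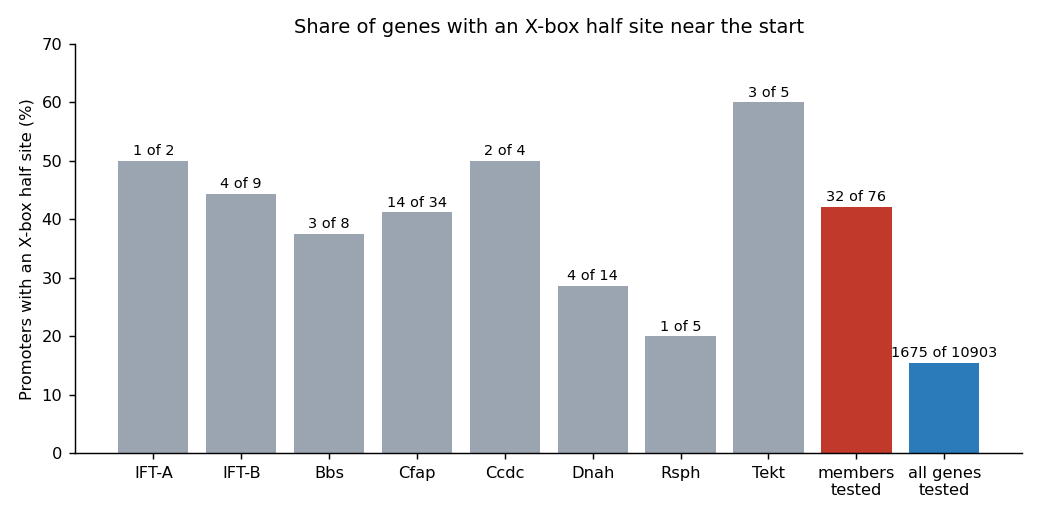
Share of genes, in percent, with a GTTGCC arm between 250 bases before and 50 bases after a RefSeq start, for each subgroup (all members with a promoter), for the tested members and for all genes tested. The tested members stand at 42.1% and all genes tested at 15.4%, and the subgroups range from 20% of 5 Rsph genes to 60% of 5 Tekt genes.

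The libraries held between 18175317 and 34873964 reads in genes, and the members took 0.741% to 0.899% of them. *Foxj1*, a transcription factor of motile cilia, was read at 607 to 777 CPM (its reads scaled to a common library total) in every library. It belongs to a marker list for multiciliated epithelium, of which *Mcidas*, *Deup1*, *Cdc20b*, *Myb* and *Scgb1a1* had 0 reads in all 9 libraries. *Ccno*, the remaining gene of that list, was read at 0 to 6.90 CPM. The summed CPM of 8 HC markers was 8761 to 13750 in wild-type and 7464 to 8631 in homozygous mutant HCs. Among them, *Otof*, *Myo7a* and *Gfi1* had log2 fold changes of -1.07, -0.88 and -0.69. Those of *Myo6*, *Pou4f3*, *Atoh1*, *Lhx3* and *Epcam* lay between -0.15 and 0.03. The summed CPM of 11 supporting cell markers was 2154 to 4861 in wild-type and 1726 to 2912 in homozygous mutant HCs. Vestibular HC markers summed to 2760 to 3587 CPM in wild-type and 1772 to 2248 CPM in mutant libraries. *Spp1* and *Ocm* were called lower (2 of 6), and *Anxa4*, *Mapt*, *Sox2* and *Calb2* had log2 fold changes of 0.18, 0.70, -0.18 and -0.24. Cochlear HC markers summed to 1060 to 1557 and 665 to 753 CPM (1 of 6 called lower, *Gata3*). The 7 neuron markers summed to 1588 to 2011 and 738 to 950 CPM (1 of the 5 tested called lower, *Nefm*). *Nefl*, *Isl1* and *Snap25* had log2 fold changes of -0.25, 0.04 and 0.25. *Neurod1* was at 0.0916, 0.036 and 0 CPM in wild-type and 0.0695, 11.5 and 1.97 CPM in homozygous mutant libraries. Homozygous library 46 carries most of its value, so no fold change is given for *Neurod1*. Over all genes tested, 0.915% were called lower. In edgeR none of the HC or supporting cell markers was called (adjusted p = 0.141 for *Myo7a*, 0.125 for *Otof* and 0.216 for *Gfi1*). The study, using DESeq2 at the same thresholds, reports *Myo7a*, *Otof* and *Gfi1* as significantly downregulated in homozygous mutant HCs. The part of these markers in the results below was not tested. Wild-type library 59 stood apart from the other libraries on the first principal component and homozygous library 46 on the second. Wild-type library 59 and homozygous library 46 also had the largest shares of tested genes under 1 CPM (23.1% and 20.9%) and the lowest sample weights (0.547 and 0.602). The study's methods note lower RNA integrity in a wild-type and a homozygous mutant library without naming them, and its part in the results was not tested.

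In wild-type HCs the members were read at levels from 0.0595 to 248 RPKM, the CPM per kilobase of merged exon, with a median of 13.5 RPKM against 6.59 RPKM over all genes tested. Of the 90 tested members, 51 were above 10 RPKM and 9 were below 1 RPKM. *Tekt2*, which encodes a tektin, was highest at 248.5 ± 44.1 RPKM (SD, n = 3). It was followed by *Cfap298* at 157.6 ± 49.4, *Tekt1* at 129.9 ± 42.8, *Cfap126* at 116.6 ± 21.8 and *Cfap52* at 97.6 ± 32.8 RPKM (SD, n = 3 each). The lowest wild-type library of *Tekt2* (209.6 RPKM) lay above the highest of *Cfap298* (204.1 RPKM), whereas each of the next 9 members in this order overlapped its neighbour. In *Cfap298*, 44.2% of the exonic bases are shared with an annotated transcript on the opposite strand, and in *Tekt2* 20.8% are. Whether reads were counted by strand is unknown here, so both levels and their order are uncertain.

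By their medians the transport genes were read at higher levels than the dynein heavy chains, though the ranges met, and the lowest of the 14 tested IFT genes, *Ift46*, stood at 9.19 RPKM. The median wild-type level was 22.7 RPKM over the 11 tested IFT-B genes, 20.5 RPKM over the 3 IFT-A genes, 31.7 RPKM over the 5 Tekt genes, 15.6 RPKM over the 40 Cfap genes, 14.3 RPKM over the 4 Ccdc genes, 13.6 RPKM over the 7 Rsph genes and 6.13 RPKM over the 8 Bbs genes. The 12 tested Dnah genes had a median of 2.86 RPKM and none above 10.01 RPKM. *Dnah9*, an outer arm heavy chain, led them at 10.01 RPKM, with *Dnah10*, an inner arm chain, at 9.32 RPKM and *Dnah6*, also an inner arm chain, at 9.25 RPKM. *Ift20*, the IFT subunit also found at the Golgi, was the highest transport gene at 91.8 ± 31.2 RPKM (SD, n = 3), followed by *Ift172* at 49.4 RPKM and then *Ift22*. *Rsph1*, a radial spoke head gene, stood at 83.1 RPKM and *Rsph9* at 58.1 RPKM. *Ccdc40* stood at 80.8 RPKM and its partner *Ccdc39* at 18.6 RPKM, of whose exonic bases 16.9% are shared with *Ttc14* on the other strand. *Bbs1* was the highest BBSome gene at 37.6 RPKM, ahead of *Bbs5* at 21.5 RPKM and *Bbs2* at 15.8 RPKM.

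**Figure D2:**
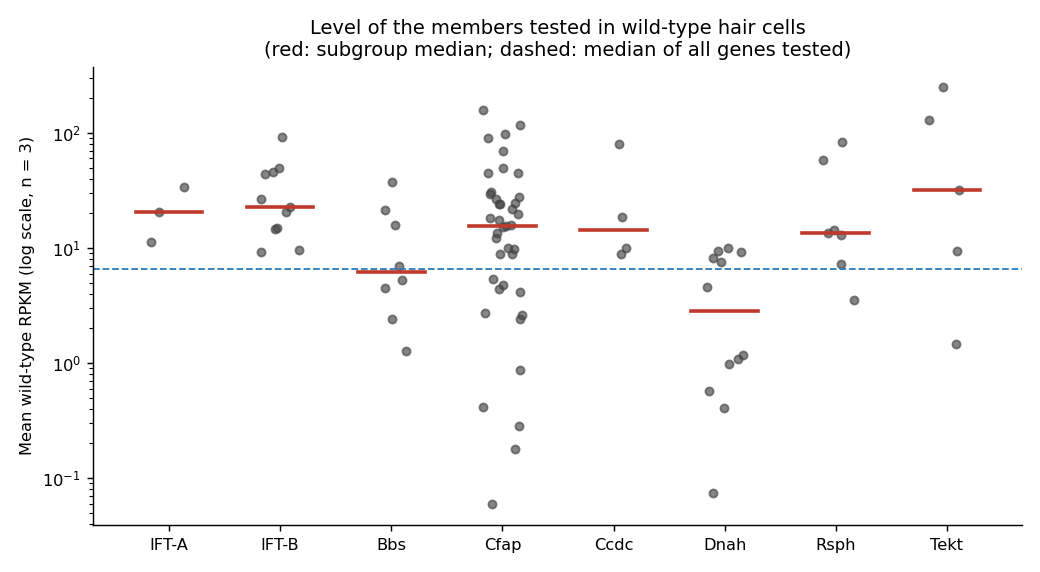
Mean RPKM in 3 wild-type libraries (vertical log axis) for each of the 90 tested members, by subgroup, with the subgroup median in red and the median of all genes tested as a dashed line. The Dnah median of 2.86 RPKM lies below the dashed line at 6.59 RPKM, the Bbs median of 6.13 RPKM is next to it and the other medians lie above it.

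The 8 untested members were *Cfap97d1*, *Cfap276*, *Dnah2os*, *Dnah3*, *Dnah12*, *Dnah14*, *Ift88os* and *Rsph6a*. *Cfap97d1*, *Dnah3*, *Dnah12* and *Ift88os* had 0 reads in all 9 libraries. *Cfap276* was just outside the filter, with 168, 0 and 1 reads in wild-type, 1, 1 and 239 in heterozygous and 26, 0 and 0 in homozygous mutant libraries. *Dnah14* was outside it as well, with 41 reads in 1 wild-type, 57 in 1 heterozygous and 89 in 1 homozygous mutant library and at most 2 in each other. Just inside it were *Dnah17* and *Cfap99*, whose highest levels in any library were 3.56 and 3.18 CPM. Low values varied by library and not only by genotype. Of the 90 tested members, 16 fell under 1 CPM in at least 1 library, 15 of them in homozygous library 46, 8 in wild-type library 59 and at most 6 in each other library. *Dnah7a*, *Dnah7b* and *Dnah7c* are near-identical copies, so the counting could split their reads and their values are uncertain.

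Whether the Dmdo allele changed these genes was asked first between homozygous mutant and wild-type HCs. The median log2 fold change over the 90 tested members was -0.08, against -0.02 over all genes tested, with 40 members above 0 and 50 below. At an FDR under 10% and a fold change over 1.5 in edgeR's quasi-likelihood test, 0 of 90 members rose, where 0.237% of all genes tested did, and 1 of 90 fell, where 0.915% did. At an unadjusted p under 0.05 the members numbered 9 higher (4.92% of all genes tested) and 5 lower (8.19%). DESeq2, at the same thresholds, called 4 members higher (2.34% of all genes tested) and 2 lower (4.02%).

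The gene that fell was *Cfap65* (chr1:74902071-74935599, minus strand, GRCm38), which encodes a protein of the central apparatus known from sperm flagella. It was read at 232, 521 and 886 CPM in the wild-type libraries 44, 55 and 59, at 234, 523.5 and 342 CPM in the heterozygous libraries 45, 48 and 51, and at 134, 198 and 181 CPM in the homozygous mutant libraries 43, 46 and 47. All homozygous mutant libraries lay below all wild-type libraries, though wild-type library 44 was nearer to them than to the other wild-type libraries. The level was 3.197-fold lower, a log2 fold change of -1.68 ± 0.39 (SE, edgeR adjusted p = 0.0745). DESeq2 and limma-voom called it as well (adjusted p = 0.00232 and 0.0239). Without wild-type library 59 its log2 fold change was -1.14 and the adjusted edgeR p was 0.278, and without homozygous library 46 they were -1.77 and 0.23. All mutant mice bore numbers up to 47, as did only 1 wild-type and 1 heterozygous mouse. With the mouse number (47 and lower against 48 and higher) as a term the log2 fold change was -0.70 and the adjusted edgeR p was 0.663, and genotype and number can barely be told apart. Leaving out heterozygous library 51, wild-type library 55 or either of the mutant libraries 43 and 47 also took the adjusted edgeR p past the threshold (0.126 to 0.281).

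Among the genes higher in the mutants, *Ift43* came first. It encodes an IFT-A subunit and lies at chr12:86082541-86162459 on the plus strand. Wild-type libraries had 76.8, 48.6 and 43.3 CPM, heterozygous libraries 93.0, 91.6 and 88.7 CPM and homozygous mutant libraries 121, 111 and 138 CPM. The 3 genotypes did not overlap, and they stood in the order of the number of Dmdo alleles. The mutant level was 2.19-fold the wild-type level, a log2 fold change of 1.13 ± 0.32 (SE), which missed the threshold in edgeR (adjusted p = 0.12) and passed it in DESeq2 (adjusted p = 0.0161) and in limma-voom (adjusted p = 0.0761). Without wild-type library 44, the highest of its group, the edgeR adjusted p was 0.0219, and in the other 8 fits that left out 1 library it was 0.119 to 0.305 with no call. It was also not called with the mouse number, surrogate variable, *Xist* to *Ddx3y* or length and GC content terms.

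*Ift46*, which encodes an IFT-B subunit that carries outer dynein arms, lies at chr9:44767908-44793447 on the plus strand. It was read at 57.7, 62.1 and 57.2 CPM in wild-type, 61.2, 67.1 and 61.8 CPM in heterozygous and 103.9, 104.5 and 104.8 CPM in homozygous mutant libraries. The mutant libraries lay together above all 6 others, and the heterozygous libraries overlapped the wild-type ones. The log2 fold change was 0.82 ± 0.32 (SE, edgeR adjusted p = 0.271), and the adjusted p was 0.0745 in DESeq2 and 0.259 in limma-voom.

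*Ift88*, the IFT-B gene of the classical polycystic kidney mutant, lies at chr14:57424062-57517936 on the plus strand. Its wild-type values were 40.8, 73.0 and 93.8 CPM, its heterozygous values 82.2, 80.9 and 73.1 CPM and its homozygous mutant values 47.7, 50.6 and 71.6 CPM. The groups overlapped, with a log2 fold change of -0.29 ± 0.37 (SE, edgeR adjusted p = 0.808). *Ift80*, another IFT-B gene, had 64.6, 98.9 and 196 CPM in wild-type and 72.2, 65.8 and 66.6 CPM in mutant libraries, a log2 fold change of -0.81 ± 0.40 (SE, edgeR adjusted p = 0.384) that was -0.26 without wild-type library 59 and 0.13 with the mouse number term.

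**Figure D3:**
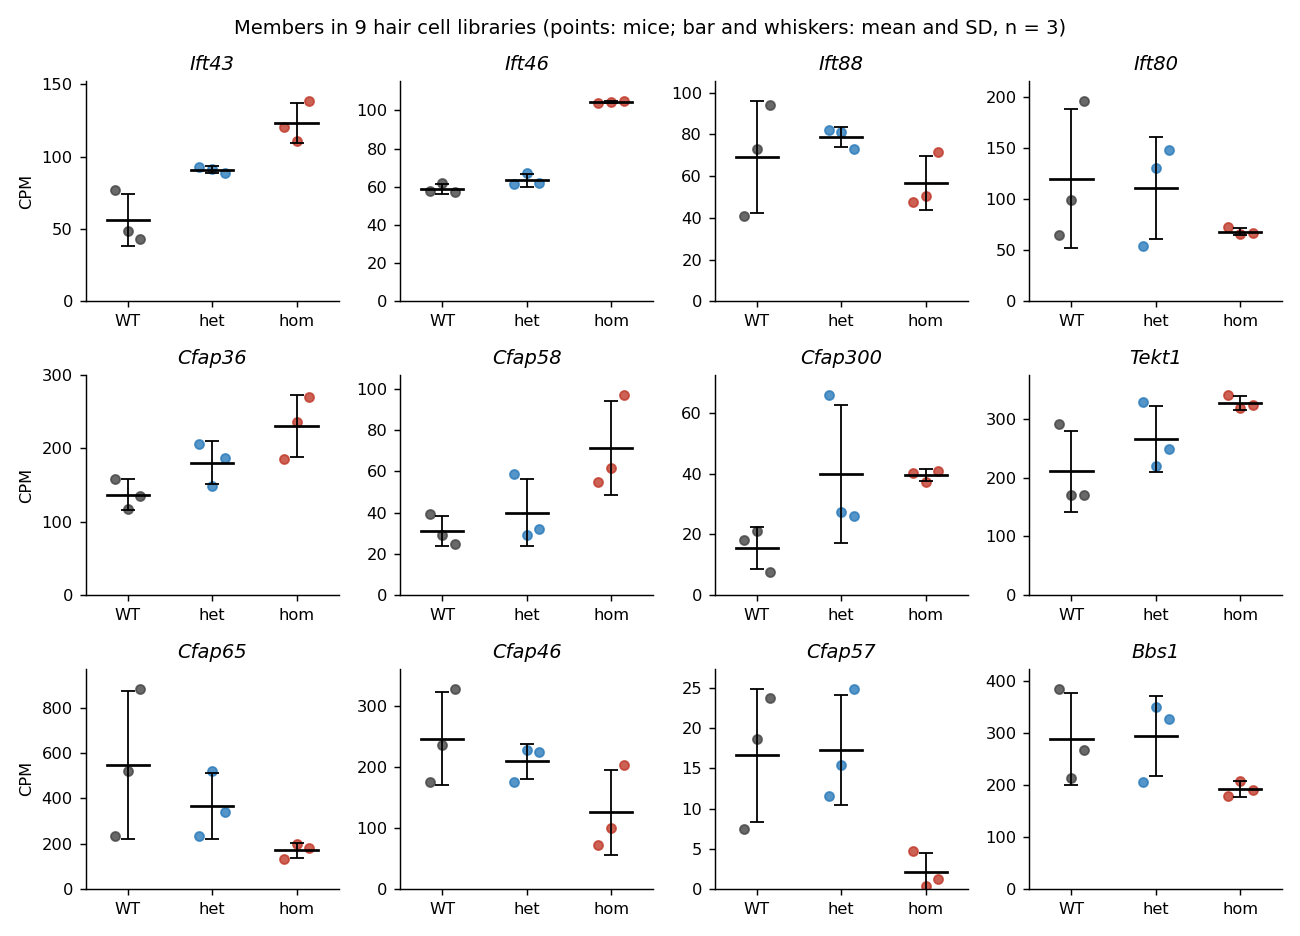
CPM (vertical axes from 0) of 12 members in 9 libraries, 1 point per mouse, with mean and SD (n = 3) for wild-type (WT), heterozygous (het) and homozygous mutant (hom) HCs. The *Ift46* mutants sit at 103.9 to 104.8 CPM above wild-type values of 57.2 to 62.1, and the *Cfap65* wild-type values spread from 232 to 886 CPM above mutant values of 134 to 198.

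The other members with the smallest p-values in the higher direction were Cfap and Tekt genes, and none passed the edgeR threshold. *Cfap36* was read at 117 to 159 CPM in wild-type, 149 to 206 CPM in heterozygous and 186 to 270 CPM in mutant libraries. Its log2 fold change was 0.75 ± 0.27 (SE, edgeR adjusted p = 0.228, DESeq2 adjusted p = 0.0793, limma-voom adjusted p = 0.2095). *Cfap58* was read at 24.9 to 39.3, 28.9 to 58.6 and 54.7 to 97.1 CPM in the same order. The log2 fold change of *Cfap58* was 1.19 ± 0.43 (edgeR adjusted p = 0.242, DESeq2 adjusted p = 0.09995, limma-voom adjusted p = 0.256). *Cfap300*, a gene needed to assemble dynein arms, was at 7.53 to 20.99, 26.2 to 66.0 and 37.4 to 41.0 CPM, and its heterozygous libraries already lay above all wild-type libraries. *Cfap53*, a gene of left-right patterning, was at 25.4 to 41.4 CPM in wild-type and 45.5 to 82.7 CPM in mutant libraries, with an edgeR adjusted p of 0.283. *Tekt1* was at 171 to 291 CPM in wild-type and 318 to 341 CPM in mutant libraries, without overlap, and its log2 fold change of 0.64 ± 0.27 did not pass (edgeR adjusted p = 0.303). *Cfap95* overlapped between the groups at 15.7 to 26.5 and 23.2 to 62.3 CPM (edgeR adjusted p = 0.337).

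In the lower direction, *Cfap46*, a gene of the central pair, was at 176, 235 and 328 CPM in wild-type and 72.4, 99.8 and 204 CPM in mutant libraries, a log2 fold change of -0.97 ± 0.33 (SE, edgeR adjusted p = 0.215). Mutant library 47 lay within the wild-type range. *Cfap57*, a regulator of inner dynein arms, was at 7.51, 18.7 and 23.7 CPM in wild-type, 11.6, 15.4 and 24.9 CPM in heterozygous and 4.73, 0.387 and 1.18 CPM in mutant libraries. Its mutant libraries lay below all others. The log2 fold change of -2.98 ± 1.08 had an adjusted p of 0.244 in edgeR, 0.0319 in DESeq2 and 0.345 in limma-voom. *Bbs1*, a core BBSome gene, was at 213 to 386 CPM in wild-type, 205 to 349 CPM in heterozygous and 178 to 208 CPM in mutant libraries (log2 fold change -0.59 ± 0.27, edgeR adjusted p = 0.364). *Cfap77* was at 98.3 to 136 CPM in wild-type and 47.1 to 87.9 CPM in mutant libraries (edgeR adjusted p = 0.39), and *Cfap73* at 11.1 to 16.5 and 0.0636 to 5.49 CPM (edgeR adjusted p = 0.426). *Dnah17* had 1, 99 and 0 reads in the wild-type libraries and 0 reads in all mutant libraries, so a single wild-type library carries its value and no fold change is given.

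Across the 90 tested members, the mutant and wild-type ranges did not overlap for 12 that were higher, where 7.61% of all genes tested were, and for 7 that were lower, where 8.9% were. The higher ones were *Ift27*, *Ift43*, *Ift46*, *Ift52*, *Bbs2*, *Bbs9*, *Cfap36*, *Cfap53*, *Cfap58*, *Cfap300*, *Cfap418* and *Tekt1*. The lower ones were *Bbs1*, *Cfap57*, *Cfap65*, *Cfap73*, *Cfap77*, *Cfap161* and *Rsph4a*. Among the 14 tested IFT genes, 4 lay above the wild-type range and 0 below it, but their median log2 fold change was 0.02, with 7 genes above 0 and 7 below.

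By subgroup, the median log2 fold change was 0.20 for IFT-A, -0.08 for IFT-B, 0.05 for Bbs, near 0 for Cfap, 0.32 for Ccdc, -0.41 for Dnah, -0.20 for Rsph and 0.20 for Tekt genes. The Dnah genes stood lowest, with 10 of 12 below 0 and -0.40 without the Dnah7 copies. None of the Dnah genes passed the test or lay outside the wild-type range. *Dnah9* was at 127, 186 and 165 CPM in wild-type and 88.2, 161 and 143 CPM in mutant libraries (log2 fold change -0.29 ± 0.29, edgeR adjusted p = 0.736), and *Dnah10* at 58.2, 182 and 210 CPM and 62.9, 152 and 83.6 CPM (-0.59 ± 0.42, edgeR adjusted p = 0.605, and 0.43 with the mouse number term). *Dnah6* gave a log2 fold change of 0.02 ± 0.35.

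The most highly read members of each subgroup did not pass either. *Tekt2* gave a log2 fold change of 0.20 ± 0.23 (SE), *Tekt4* one of 0.28 ± 0.36, *Cfap298* one of 0.04 ± 0.27 and *Cfap126* one of -0.01 ± 0.31. *Cfap52* stood at -0.54 ± 0.29 (edgeR adjusted p = 0.431). Among transport genes the values were -0.03 ± 0.29 for *Ift20*, -0.46 ± 0.26 for *Ift172*, -0.42 ± 0.28 for *Ift22*, 0.06 ± 0.26 for *Ift122* and 0.20 ± 0.30 for *Ift140*, the last 2 of them IFT-A genes. *Rsph1* stood at -0.28 ± 0.29, *Rsph3a* at -0.12 ± 0.48 and *Rsph9* at 0.70 ± 0.35. *Ccdc40* and *Ccdc39*, partners in the axoneme, gave -0.19 ± 0.26 and -0.42 ± 0.45, and *Ccdc103*, a dynein arm attachment gene, gave 0.83 ± 0.61. *Bbs5* stood at -0.58 ± 0.50 and *Bbs2* at 0.66 ± 0.35, both BBSome subunits, and the adjusted edgeR p of *Bbs2* was 0.425.

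**Figure D4:**
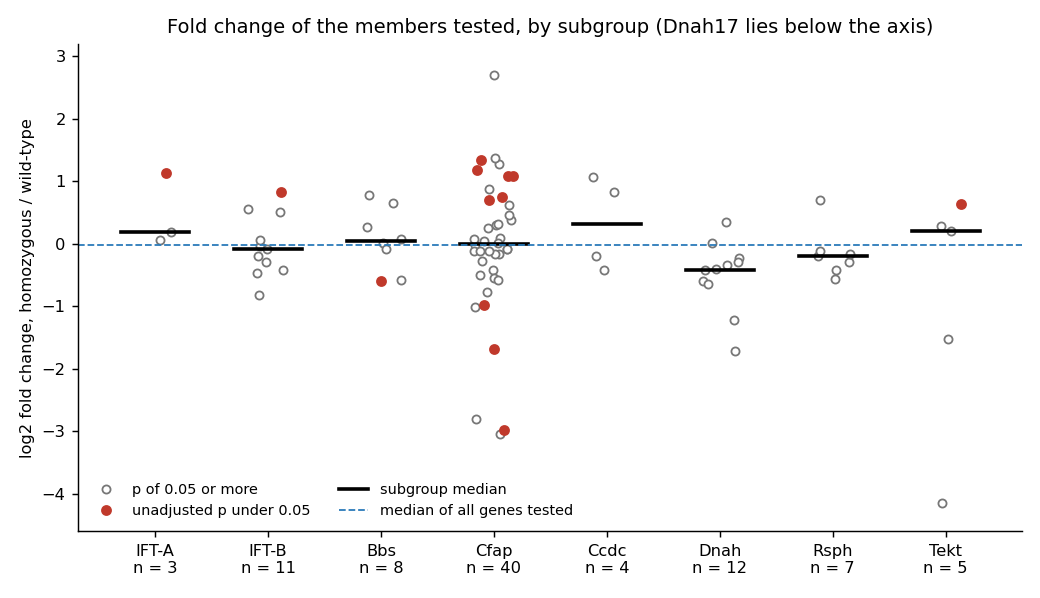
Log2 fold change of homozygous mutant against wild-type HCs for 89 of the 90 tested members, by subgroup (*Dnah17* lies below the axis). Filled points have an unadjusted edgeR p under 0.05, bars are subgroup medians and the dashed line is the median of all genes tested at -0.02. The points scatter on both sides of the line in most subgroups, and 10 of 12 Dnah genes lie below 0.

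The Dnah transcripts are long, with merged exons of 12.6 to 26.8 kb, and fold changes varied with length over all genes. The median log2 fold change between mutant and wild-type HCs was 0.49 over the 1265 genes of at most 1 kb, 0.21 over the 1831 genes of 1 to 2 kb, 0.01 over those of 2 to 4 kb and -0.10 over the 820 genes above 12 kb. The 14 members above 12 kb, most of them Dnah genes, had a median of -0.41. With offsets for gene length and GC content in each library the Dnah median was -0.35, the IFT-B median was -0.34, the IFT-A median was 0.40, the Bbs median turned to -0.23 and the median over all members was -0.12. With the offsets *Ift43* kept a log2 fold change of 1.14 and *Ift46* one of 0.98, while *Cfap36* came to 0.51, *Cfap300* to 0.89 and *Cfap65* to -1.42 (edgeR adjusted p = 0.124). Across the 90 members the fold change and the log length had a Pearson r of -0.19 and a Spearman rho of -0.26, a description over genes that share the same libraries.

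**Figure D5:**
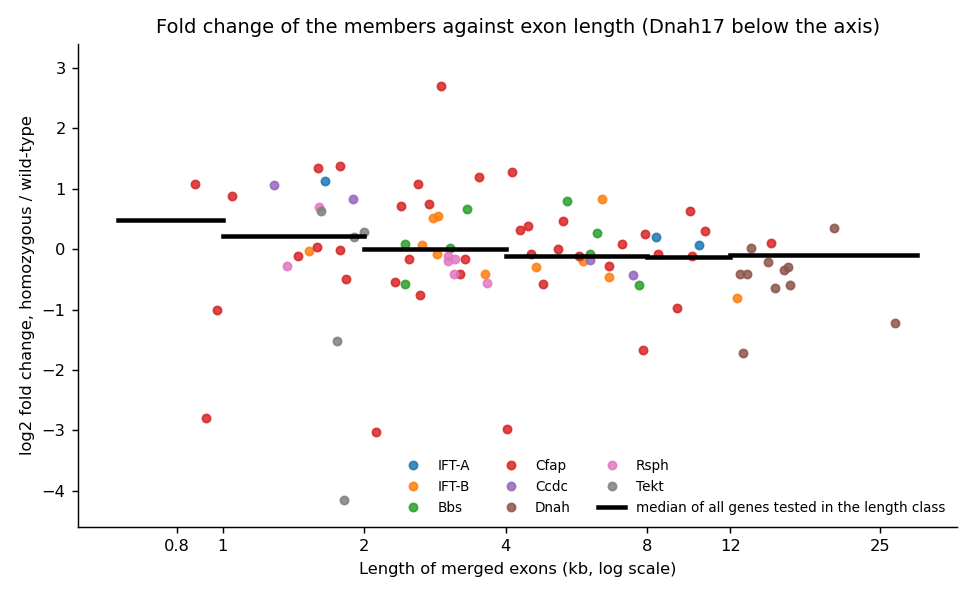
Log2 fold change of homozygous mutant against wild-type HCs (vertical axis) against the length of merged exons in kb (log axis), coloured by subgroup, with black bars for the median of all genes tested in 6 length classes. The bars fall from 0.49 at up to 1 kb to about -0.1 above 4 kb, and the Dnah genes lie at the right, 10 of 12 of them below 0.

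Heterozygous HCs were compared with wild-type HCs next, and none of the members passed. In edgeR 0 of 90 members were called, as were 0% of all genes tested, and 4 had an unadjusted p under 0.05 (4.52% of all genes tested). DESeq2 called 0 members and 0.303% of all genes tested. The heterozygous libraries lay above the wild-type range for 14 of 90 members (5.41% of all genes tested) and below it for 3 (5.38%). Those with an unadjusted p under 0.05 were *Ift43* (log2 fold change 0.70 ± 0.32), *Cfap95* (1.20 ± 0.48), *Cfap300* (1.36 ± 0.54) and *Cfap107* (-1.63 ± 0.67). *Cfap107* was at 37.1, 24.6 and 69.8 CPM in wild-type, 21.8, 12.8 and 7.75 CPM in heterozygous and 5.70, 37.4 and 22.2 CPM in mutant libraries, so its mutant libraries overlapped both other groups.

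Between homozygous mutant and heterozygous HCs, edgeR called 0 of 90 members, where 0.00659% of all genes tested were called, and 10 had an unadjusted p under 0.05 (6.78% of all genes tested). Of these, 3 were higher and 7 lower in the mutants. The higher ones were *Ift46* (log2 fold change 0.72 ± 0.32), *Cfap418* (0.94 ± 0.33) and *Rsph9* (0.94 ± 0.35). *Cfap65* (-1.10 ± 0.39), *Cfap46* (-0.74 ± 0.33) and *Bbs1* (-0.61 ± 0.27) were among the lower ones. DESeq2 called 1 member, *Cfap57*, and 0.968% of all genes tested. This comparison and the first share the mutant libraries, and the first and second share the wild-type libraries.

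For a stepwise change per Dmdo allele (0, 1 or 2), fitted over all 9 libraries, 1 of 90 members rose (0.435% of all genes tested) and 1 fell (1.34%) at an FDR under 10%. *Ift43* rose by 0.57 ± 0.16 on the log2 scale per allele (edgeR adjusted p = 0.087), and *Cfap65* fell by 0.84 ± 0.20 per allele (edgeR adjusted p = 0.0581). The call of *Ift43* was lost in 8 of 9 fits that left out 1 library and that of *Cfap65* in 5 of 9, and both calls were lost with the mouse number, surrogate variable, *Xist* to *Ddx3y* and length and GC content terms. *Cfap36* (0.38 ± 0.13 per allele, edgeR adjusted p = 0.164) and *Cfap58* (0.60 ± 0.20, edgeR adjusted p = 0.166) did not pass in edgeR, and DESeq2 gave adjusted p of 0.0572 and 0.083. *Ift46*, whose heterozygous values lay with the wild-type ones, had an adjusted p of 0.207 in edgeR and 0.0776 in DESeq2. In limma-voom none of *Cfap36*, *Cfap58* and *Ift46* was called in the trend.

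Other cilium genes were taken from lists of IFT motors and subunits, dynein arm assembly, central pair, doublet, transition zone and kinocilium genes. Further lists held BBSome and chaperonin genes and transcription factors of ciliogenesis. Of the 89 tested genes, 0 were called between homozygous mutant and wild-type HCs in edgeR. At an unadjusted edgeR p under 0.05, 4 were higher and 12 lower (4.49% and 13.5%, against 4.92% and 8.19% of all genes tested). DESeq2 called 7 of the 89, where 2.34% of all genes tested were called higher and 4.02% lower. The median log2 fold change of the 89 genes was -0.12. The transition zone genes, which form the gate at the ciliary base, had a median of -0.58 over 14 genes, with 1 higher and 5 lower at an unadjusted p under 0.05 (7.14% and 35.7%, beside the same shares of all genes). Of these, *Ahi1* was at 65.2, 74.9 and 219 CPM in wild-type and 48.8, 36.8 and 59.6 CPM in mutant libraries (log2 fold change -1.31 ± 0.41, edgeR adjusted p = 0.172, and -0.53 without wild-type library 59). *B9d1* was at 63.7, 36.1 and 43.7 CPM and 81.1, 133 and 86.8 CPM (1.07 ± 0.36, edgeR adjusted p = 0.206). The IFT motor genes had a median of 0.14 over 10 genes, with *Kif17*, a kinesin-2 gene, at -1.19 ± 0.52. *Dnaaf2*, a dynein arm assembly factor, had the smallest p of the lists (log2 fold change -1.26 ± 0.37, edgeR adjusted p = 0.141). *Kncn*, which encodes the kinocilium protein kinocilin, was at 309.5, 206 and 321 CPM in wild-type and 227, 186 and 226 CPM in mutant libraries (-0.39 ± 0.26, edgeR adjusted p = 0.568).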

How the data were processed

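HCs of 9 mice, 3 per genotype, were sequenced from a directional library kit with 22 PCR cycles. The deposited values are raw read counts per gene, which the authors made with HISAT2 2.0.4 on GRCm38 and HTSeq, per the submitters' processing notes. No source used here gives the strand setting. Genes reaching 20 reads in 2 or 3 libraries of any genotype were tested with edgeR 4.0.16 (R 4.3.3; TMM, robust quasi-likelihood, all 9 libraries in 1 fit, Benjamini-Hochberg over all genes tested). The study used DESeq2, run here (1.42.0) as an alternative beside limma-voom (limma 3.58.1) and 1 surrogate variable (sva 3.50.0). Calls needed an FDR under 10% and a fold change over 1.5 (no fold threshold for the trend). CPM used TMM-scaled totals, and RPKM used merged exon lengths of GENCODE release 21 for mouse. SEs were derived from the F statistics. Scripts were tested on simulated data. Named members were the markers *Ift43*, *Ift46* and *Ift88*, every member called, the 8 smallest p-values in each direction and the 3 highest levels of each subgroup, and *Cfap107* and *Cfap418* were added after their values were seen. Members and lists were chosen with earlier results of these data known. *Tctn2* and *Tp73* of the lists were not matched and are not analysed here. Each group holds 3 mice, so an exact permutation test of 1 value could not go below p = 0.1. P-values cover the spread between mice.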

Additional observations from a re-analysis of the deposited data

How the results depend on the processing

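The study describes the wild-type mice as littermate controls, but the labels give no litters, so no paired analysis was possible. The alternatives left 23 of the 38 named members with 1 direction of change throughout, and of 795 values of named members over the alternatives 721 kept their direction and side of the threshold, 52 changed sign, 11 lost a call and 11 gained one. The number of members higher in homozygous mutant than in wild-type HCs (0) became 4 with DESeq2, 1 with limma-voom and 1 with no low-count filter, and 0 to 3 when 1 library was left out (3 without wild-type library 44). The number lower (1) became 2 with DESeq2 and 2 with no low-count filter. It was 0 with 1 surrogate variable, 0 with the mouse number term, 0 with the ratio of *Xist* to *Ddx3y* as a term, 0 with GC content and length offsets, 0 without both wild-type library 59 and homozygous library 46, 0 at an FDR under 5%, and 0 to 2 with 1 library left out. Between homozygous and heterozygous HCs (0) it was 1 with DESeq2, 1 with limma-voom and 1 with no filter. The trend calls (2) became 7 with DESeq2 and 5 with limma-voom. They were 0 with 1 surrogate variable, 0 with the mouse number, 0 with *Xist* to *Ddx3y*, 0 with the offsets, 0 without both libraries and 0 at an FDR under 5%, and 0 to 7 with 1 library left out. The other cilium genes (0) gave 7 calls with DESeq2, 1 with limma-voom and 6 with no filter, and 0 to 5 with 1 library left out. The median log2 fold change of the members (-0.08) was 0.0090 with library totals only, -0.0023 with 1 surrogate variable, 0.016 with *Xist* to *Ddx3y* and 0.082 without both libraries, and ranged from -0.18 to 0.082 with 1 library left out. The cause of these changes was not tested.

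The sign changes were as follows, and they include *Ift80*, *Dnah10*, *Bbs5* and *Cfap52*, which stood between -0.81 and -0.54 with all libraries. With limma-voom the log2 fold change was 0.15 for *Cfap126*, -0.30 for *Dnah6*, -0.018 for *Ift122* and 0.19 for *Ift20*. With library totals only it was 0.078 for *Cfap126* and 0.053 for *Ift20*, and *Cfap126* was 0.0057 with no filter and 0.0064 with edgeR's own filter. With 1 surrogate variable it was 0.18 for *Ccdc39*, -0.0081 for *Ift122* and 0.020 for *Ift20*. With the mouse number term it was 0.47 for *Ccdc39*, 0.19 for *Ccdc40*, -0.21 for *Cfap298*, 0.43 for *Dnah10*, 0.13 for *Ift80*, 0.047 for *Ift88* and -0.012 for *Tekt2*. With *Xist* to *Ddx3y* it was 0.034 for *Cfap126*, -0.023 for *Dnah6*, -0.031 for *Ift122*, 0.29 for *Ift20* and -0.0014 for *Tekt4*. With GC content and length offsets it was 0.074 for *Ccdc40*, -0.10 for *Cfap298* and 0.014 for *Rsph3a*. Without both libraries it was 0.088 for *Bbs5*, 0.29 for *Ccdc39*, 0.039 for *Ccdc40*, 0.40 for *Cfap126*, 0.0063 for *Cfap52*, 0.080 for *Ift20* and 0.083 for *Ift88*. With 1 library left out the log2 fold change ranged from -0.88 to 0.22 for *Bbs5*, -0.81 to 0.48 for *Ccdc39*, -0.39 to 0.31 for *Cfap126*, -0.18 to 0.28 for *Cfap298*, -0.19 to 0.39 for *Dnah6*, -0.13 to 0.21 for *Ift122*, -0.29 to 0.16 for *Ift20* and -0.53 to 0.36 for *Rsph3a*. For members read at under 1 CPM in a library, single libraries could set the value. The cause of such low values was not tested.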
